A study of Mus musculus with 39 samples.

Results

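The genes described here are 10 members of the type 1 and cytotoxic effector program of T cells and natural killer (NK) cells, followed through 39 mouse RNA-seq libraries. The members were the rows of the deposited count table with the symbols Tbx21, Eomes, Stat4, Ifng, Fasl, Xcl1, Gzma, Gzmb, Prf1 and Nkg7, which are 10 of the 55011 gene symbols in that table. Levels are given as CPM, the count scaled to the library's total. The sharpest contrast was between 2 tissue sources of one sorted T cell type. In Vγ6+ T cells, 7 of the 10 members passed as lower in injured muscle than in colon, against 12.2% of the 11907 genes tested. No tested member passed as higher, and Eomes had too few counts to test. Ifng, Xcl1, Fasl and Nkg7 had enough counts only through the colon libraries, so being tested almost fixed their direction.

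Vγ6+ T cells are γδ T cells whose receptor uses the Vγ6 chain. They settle in tissues early in life and are best known as a source of IL-17A. The type 1 program is a different one: T-bet (Tbx21) and Eomes are T-box transcription factors that, with STAT4 downstream of IL-12, switch on interferon gamma (Ifng) and the chemokine lymphotactin (Xcl1). The cytotoxic arm kills through granules, in which perforin (Prf1) lets granzymes (Gzma, Gzmb) into the target cell, or through Fas ligand (Fasl), which engages the death receptor Fas.

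The 39 libraries formed 14 groups of 2 or 3, which the submitters describe as independent biological replicates. Vγ6+ cells were sorted, 1000 cells a library, from wild-type mice, either from the lamina propria of the untreated colon (n = 3) or from hindlimb muscle at day 3 after cardiotoxin injury (n = 3). Whole tibialis anterior RNA, 2 ng a library, came from cardiotoxin-injured muscle at days 1, 3, 7 and 14 of wild-type and Tcrd-DTR mice, n = 3 each but n = 2 for Tcrd-DTR at day 7. Tcrd-DTR mice, whose allele is named for a diphtheria toxin receptor and the δ chain gene, are the series' γδ T cell-depleted mice. Both genotypes had received intraperitoneal diphtheria toxin. A cytokine experiment compared injured muscle at day 7 in wild-type mice given intraperitoneal and intramuscular rIL-17A or PBS (n = 2 each). Muscle satellite cells (MuSCs), the stem cells of muscle, were sorted at day 1, 1000 cells a library, from injured muscle of wild-type and Tcrd-DTR mice given diphtheria toxin (n = 3 each). The age of the mice is not given in the labels used here.

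Libraries held 2372139 to 10974862 counts, and the 6 Vγ6+ libraries 3903310 to 6134194. The sorted cells carried the γδ T cell markers of their label, each of the 7 with counts in both groups. Trdc, the δ chain constant region, stood at 914 ± 13.1 CPM in the colon and 1169 ± 40.8 CPM in the muscle sample group (SD, n = 3 each). Of 6 αβ T cell markers, Cd4 and Cd8b1 had 1 to 6 counts in a group and Cd8a 39 in colon and 0 in muscle cells, while the receptor constant regions were present, Trbc1 at 423 and 334 CPM, Trbc2 at 428 and 390 CPM and Trac at 57.7 and 113 CPM in colon and muscle cells. In whole muscle Trdc was rare. At day 1 it did not show the depletion, with 8 counts in the 3 wild-type and 7 in the 3 Tcrd-DTR libraries. At days 3, 7 and 14 it had 14, 11 and 10 counts in wild-type and 0, 0 and 2 in Tcrd-DTR muscle.

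The upstream bases of 4 members are shown because these genes are the regulator, an effector cytokine and a death ligand that were low together in muscle cells, and a granzyme whose groups overlapped. Each run is the 250 bases before the RefSeq start (build GRCm38.p6), in the direction of the gene. Capitals mark matches, on either strand, to a STAT site (TTCNNNGAA), a Runx site (TGTGGTT) or a T-box core (AGGTGT).
Tbx21, chr11:97115332-97115581, minus strand: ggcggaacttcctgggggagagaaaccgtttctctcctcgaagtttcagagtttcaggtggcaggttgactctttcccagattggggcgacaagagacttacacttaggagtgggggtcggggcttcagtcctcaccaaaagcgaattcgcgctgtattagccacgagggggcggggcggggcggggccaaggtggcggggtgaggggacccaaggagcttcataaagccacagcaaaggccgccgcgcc
Ifng, chr10:118440796-118441045, plus strand: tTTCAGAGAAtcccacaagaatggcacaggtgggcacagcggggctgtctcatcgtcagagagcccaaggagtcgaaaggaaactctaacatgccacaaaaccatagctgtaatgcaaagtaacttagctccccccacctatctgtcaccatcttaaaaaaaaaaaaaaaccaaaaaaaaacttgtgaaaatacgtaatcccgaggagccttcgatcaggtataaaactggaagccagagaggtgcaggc
Fasl, chr1:161788496-161788745, minus strand: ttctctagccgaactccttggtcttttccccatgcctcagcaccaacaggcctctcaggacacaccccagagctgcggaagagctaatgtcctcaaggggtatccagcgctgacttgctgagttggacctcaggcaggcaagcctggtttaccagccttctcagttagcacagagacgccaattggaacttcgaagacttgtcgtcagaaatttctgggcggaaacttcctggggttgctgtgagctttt
Gzmb, chr14:56262335-56262584, minus strand: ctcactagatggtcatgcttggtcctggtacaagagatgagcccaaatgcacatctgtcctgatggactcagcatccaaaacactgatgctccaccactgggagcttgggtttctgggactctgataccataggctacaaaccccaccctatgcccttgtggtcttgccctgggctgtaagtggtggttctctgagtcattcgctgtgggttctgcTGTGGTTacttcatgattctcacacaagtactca
Ifng held a STAT match that began 249 bases before the start, and Gzmb a Runx match that began 34 bases before it. Tbx21 and Fasl held none of the 3 motifs in these bases. Over the 11 upstream windows of the 10 members (Stat4 has a pair of RefSeq starts), the T-box core occurred in 3 (Nkg7, Prf1 and Gzma), against 11.8% of 32851 windows of all genes. A STAT match occurred in 2 (Nkg7 and Ifng), against 7.02% of all windows, and a Runx match in 3 (Xcl1, Gzma and Gzmb), against 4.4%. None of these motifs overlapped another in a member. The RefSeq start of Nkg7 lies inside the gene as GENCODE draws it, with 65 of the 250 bases within that gene. The window of the downstream Stat4 start lies wholly inside its gene. No GENCODE transcript begins at that start, nor at the RefSeq starts of Gzmb, Nkg7, Xcl1, Prf1 and Eomes. Distances to the start, as for the Runx match of Gzmb, thus depend on the annotation. A match describes letters only.

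The first question the design asks is how Vγ6+ cells of injured muscle differ from those of the colon. Of the 10 members, 9 had enough counts to be tested, 7 passed an adjusted p under 0.05 (edgeR's quasi-likelihood F-test, Benjamini-Hochberg over all genes), and all 7 were lower in muscle cells. Ifng and Xcl1, with 0 muscle counts, and Fasl and Nkg7 had enough counts only through the colon libraries. For these, being tested almost fixed the direction, so their calls add little to the count. The members were also chosen with earlier results of these data known. In this comparison 24.5% of the 11907 genes tested passed in either direction and 12.2% passed as lower in muscle. For the same 7 members the highest muscle library lay below the lowest colon library. How many of all genes separate in this way was not counted, so the separation only describes these members. Tissue and injury cannot be told apart here, because the colon cells came from uninjured mice.

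**Figure D1:**
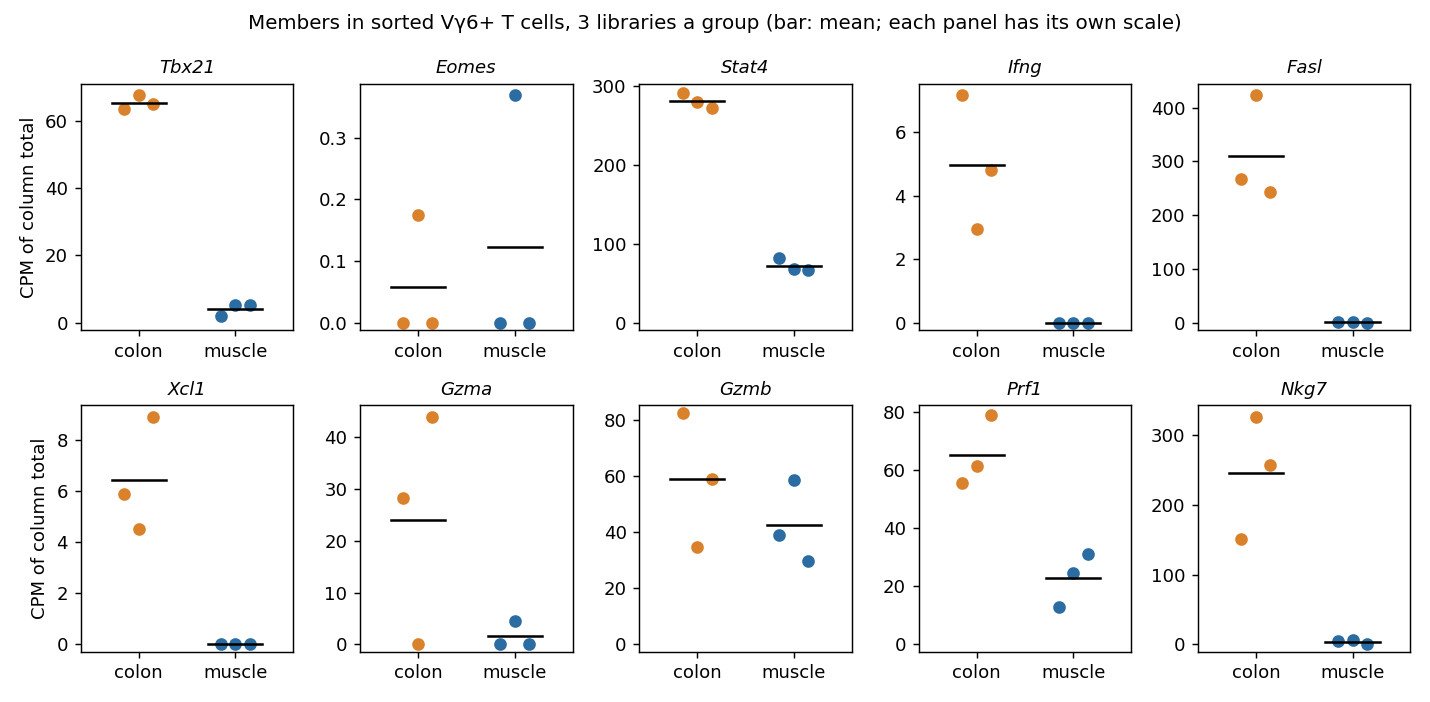
CPM of each member in the 3 colon and the 3 injured-muscle Vγ6+ libraries (points) with the group mean (bar); each panel has its own linear scale. The points of the groups do not overlap for Tbx21, Stat4, Ifng, Fasl, Xcl1, Prf1 and Nkg7, and they do for Eomes, Gzma and Gzmb.

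Tbx21, which encodes T-bet (chr11:97098071-97115331, minus strand, 6 exons), read 63.5, 67.7 and 64.9 CPM in the colon libraries and 1.96, 5.17 and 5.15 CPM in the muscle libraries. The colon values were close together, and each was over 12 times the highest muscle value. The difference was -4.05 ± 0.27 (log2, SE), or 16.5-fold lower in muscle cells (edgeR adjusted p = 4.57e-08, n = 3 each).

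Eomes, the other T-box factor (chr9:118478212-118486132, plus strand), was barely detected in either group. It had 2 counts in 1 muscle library, 1 count in 1 colon library and 0 in the remaining 4, and it was not tested. The colon cells were thus high in one T-box factor and not in the other, as the plot of each member by library shows.

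Stat4, the transducer of IL-12 signals (chr1:51987148-52107189, plus strand, 24 exons), read 292, 280 and 272 CPM in the colon and 82.7, 67.8 and 66.3 CPM in muscle. Both groups were tight, with SDs of 9.76 and 9.04 CPM. The gene was 3.97-fold lower in muscle cells (log2 -1.99 ± 0.11, SE, edgeR adjusted p = 3.04e-09, n = 3 each). It kept a substantial level there, and made up 49.1% of the CPM summed over the 10 members in muscle cells. Its symbol is uncertain to the extent that 28.6% of the 50-base words of its longest transcript also occur in Gm28177, which overlaps it on the same strand and had 4 counts in muscle and 9 in colon cells. Gm3940, on the other strand, had 180 and 563 counts.

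Ifng, the interferon gamma gene (chr10:118441046-118445892, plus strand, 4 exons), had 28, 17 and 27 counts in the colon libraries, which is 7.17, 2.96 and 4.82 CPM. It had no count in any muscle library. Against a floor of 3 counts over the 16601463 counts of the muscle group, the level was at least 26.1-fold lower in muscle cells (edgeR adjusted p = 0.000282, n = 3 each). The colon level was itself low, at 4.98 ± 2.11 CPM (SD, n = 3). Gm49751, which overlaps Ifng on the same strand and shares 13.6% of its words, had 44 counts in colon and 0 in muscle cells, so reads of this locus may be split between the symbols.

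Xcl1, the chemokine that draws cross-presenting dendritic cells through the receptor XCR1 (chr1:164931644-164935527, minus strand, 3 exons), followed the same pattern with 23, 26 and 50 counts in colon cells, or 5.89, 4.53 and 8.92 CPM. Muscle cells again had 0 counts in 3 libraries. The level was at least 35.9-fold lower there (edgeR adjusted p = 8.23e-05, n = 3 each). Gm20743 overlaps Xcl1 on the other strand and had 13 colon and 3 muscle counts.

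Fasl (chr1:161780689-161788495, minus strand, 4 exons) had the widest fitted difference of the members with counts in both groups. It read 267, 423 and 243 CPM in the colon libraries and 1.30, 1.66 and 0.198 CPM in the muscle libraries. These are 1041, 2432 and 1360 counts against 8, 9 and 1. The level was 288-fold lower in muscle cells (log2 -8.17 ± 0.41, SE, edgeR adjusted p = 3.13e-06, n = 3 each). No 50-base word of its transcript occurs in another gene.

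**Figure D2:**
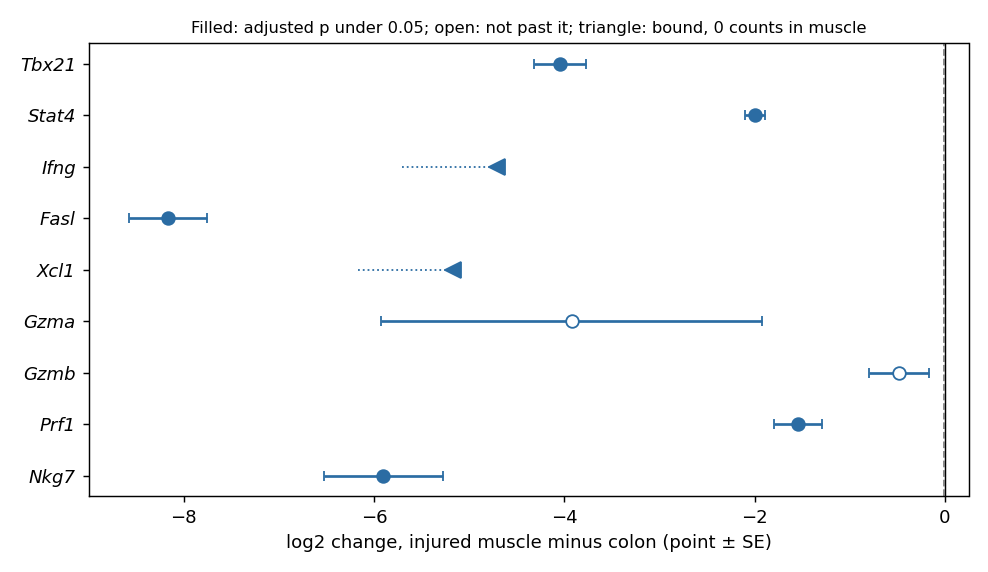
Log2 change of the 9 tested members between Vγ6+ cells from colon and from injured muscle (point ± SE, edgeR), with triangles at the bounds of Ifng and Xcl1, which had 0 counts in muscle, and a dashed line at the median of all genes tested (-0.01). Tbx21, Stat4, Fasl, Prf1 and Nkg7 are filled as past the threshold, Gzma and Gzmb are open, and every point lies left of 0.

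The granule genes divided. Nkg7, a membrane protein of cytotoxic granules (chr7:43437073-43438249, plus strand, 4 exons), read 152, 327 and 258 CPM in the colon libraries against 5.38, 6.46 and 0.396 CPM in the muscle libraries. It was 59.8-fold lower in muscle cells (log2 -5.90 ± 0.63, SE, edgeR adjusted p = 0.00237, n = 3 each). The third muscle library was low for both Nkg7 (2 counts) and Fasl (1 count). Without it both stayed past the threshold, at log2 changes of -5.41 and -7.74.

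Prf1, which encodes perforin (chr10:61297833-61304680, plus strand, 3 exons), fell less. It read 55.6, 61.5 and 79.0 CPM in colon cells and 13.0, 24.7 and 31.3 CPM in muscle cells, a 2.92-fold lower level (log2 -1.54 ± 0.25, SE, edgeR adjusted p = 0.000394, n = 3 each). The lowest colon library was 1.78 times the highest muscle library, the narrowest gap among the 7 members whose groups did not overlap.

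Gzmb, the granzyme that triggers apoptosis in target cells (chr14:56258838-56262260, minus strand, 5 exons), overlapped between the tissues. It read 82.5, 34.8 and 59.1 CPM in colon cells and 38.8, 58.7 and 29.9 CPM in muscle cells. The difference of -0.49 ± 0.31 (log2, SE) had an edgeR adjusted p of 0.304 (n = 3 each), and this p crossed the threshold with no filter on low counts (0.0454) and without colon replicate 2 (0.0492). Gzmb was thus present in muscle cells, with 151 to 318 counts a library.

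Gzma, a granzyme of a different substrate preference (chr13:113093825-113100981, minus strand, 6 exons), varied widely within each tissue. Colon libraries had 110, 0 and 246 counts, or 28.2, 0 and 43.9 CPM, and muscle libraries 1, 25 and 0 counts. The fitted difference of -3.92 ± 2.01 (log2, SE) had an edgeR adjusted p of 0.252 (n = 3 each). It passed without colon replicate 2, the library with 0 counts (-4.53, adjusted p = 0.0310). That library was not shallow, with 5743310 counts, so 0 counts allow at most 0.522 CPM. It also had the highest Nkg7 and Fasl values of all the libraries.

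As a share of the summed CPM of the 10 members, the makeup of the program differed between the sources. In colon cells Fasl held 28.9 ± 5.94%, Stat4 26.8 ± 3.68%, Nkg7 22.7 ± 5.96% and Gzmb 5.76 ± 2.88% (SD, n = 3). In muscle cells Stat4 held 49.1 ± 8.87%, Gzmb 28.1 ± 6.16%, Prf1 15.7 ± 7.25% and Nkg7 2.62 ± 2.01% (SD, n = 3). The sum itself ran from 953 to 1202 CPM in the colon libraries and from 133 to 170 CPM in the muscle libraries.

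Between genes, levels can be compared only per length, here as the CPM per kilobase of the longest transcript. In colon cells the order was Nkg7 (279), Fasl (161), Stat4 (94.4), Gzmb (40.9), Prf1 (26.4), Tbx21 (26.3), Gzma (24.1), Xcl1 (12.3), Ifng (4.13) and Eomes (0.0163). The ranges of neighbours overlapped between Nkg7 and Fasl and along the run from Gzmb to Xcl1. In muscle cells Gzmb (29.6) and Stat4 (24.2) led with overlapping ranges, and Prf1 (9.31) lay below both without overlap. Nkg7 (4.63), Tbx21 (1.64), Gzma (1.6), Fasl (0.545) and Eomes (0.0346) came next, each with a range that met its neighbour's, and Ifng and Xcl1 had no counts. Fasl moved from second place to seventh.

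Of 6 markers of other cytotoxic cells 4 were tested, 3 (Klrb1c, Klre1 and Klrd1) were lower in muscle cells and 1 (Itga2) was higher. Klrb1c, Klre1 and Klrd1 had enough counts only through the colon libraries, and Itga2 only through the muscle libraries. Being tested thus almost fixed the direction of each. The part of the markers in the result was not tested. The 6 markers, of NK cells and innate lymphoid cells, summed to 108 to 177 CPM in the colon libraries and 7.83 to 11.3 CPM in the muscle libraries. Most of the colon sum was Klrb1c, the NK1.1 antigen, at 132 ± 34.4 CPM against 1.34 ± 0.62 CPM (SD, n = 3 each). Most of the muscle sum was Itga2, an integrin chain, at 7.28 ± 2.36 CPM against 1.33 ± 1.51 CPM in colon cells (5.22-fold higher in muscle cells, edgeR adjusted p = 0.0169). Ncr1, a defining receptor of NK cells, was at 0, 1 and 27 counts in the colon libraries and 0, 1 and 2 in muscle. Klrb1c was present in each colon library, at 99.4, 168 and 129 CPM. Cd8a had 13, 22 and 4 counts in colon cells and 0 in muscle cells, and Klrd1 19, 39 and 50 against 4, 2 and 2.

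Mast cells also make granzymes, and of the 6 mast cell markers Kit alone was abundant in colon cells, at 175 ± 29.2 CPM against 2.87 ± 2.74 CPM in muscle cells (SD, n = 3 each). Cma1, Mcpt4, Tpsb2 and Ms4a2 had 0 counts in the colon group, and Cpa3 had 11. Markers of αβ T cells summed to 865 to 936 CPM in colon and 807 to 868 CPM in muscle, nearly all of it from the receptor constant regions Trbc1, Trbc2 and Trac. Markers of macrophages summed to at most 17.9 CPM and those of B cells to at most 4.99 CPM in any of these libraries.

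Of the 68 other genes of the program, in 6 lists, 57 were tested, of which 28 (49.1%) were lower in muscle cells, 9 were higher and 20 did not pass. Over all genes tested, 12.2% were lower and 24.5% passed in either direction. The lists were chosen with earlier results of these data known, so the difference between these shares is not a test of the program. Zfp683, Ccl4, Ccl5 and Csf2, with 1, 19, 12 and 4 counts in the muscle group, had enough counts only through the colon libraries. For these, being tested almost fixed the direction, so their calls add little to the count. Among 13 partner transcription factors 12 were tested, 5 were lower and 2 higher, with a median log2 change of -0.28, where the median of all genes was -0.01. Bhlhe40, a factor that sustains cytokine production, fell from 1230 ± 227 to 209 ± 15.5 CPM (6.01-fold, adjusted p = 1.53e-09). Id2, the inhibitor of E proteins that effector and innate lymphocytes depend on, was 1.83-fold lower (adjusted p = 7.44e-06), and Irf1, an interferon-induced factor, 2.25-fold lower (adjusted p = 1.45e-05). Zfp683 (Hobit) and Tcf7 were the other lower genes, and Prdm1 (Blimp-1) and Ikzf3 (Aiolos) the higher ones. Runx3, which works with T-bet at Ifng, read 172 ± 19.4 CPM in colon and 158 ± 3.75 CPM in muscle cells and did not pass (adjusted p = 0.307).

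**Figure D3:**
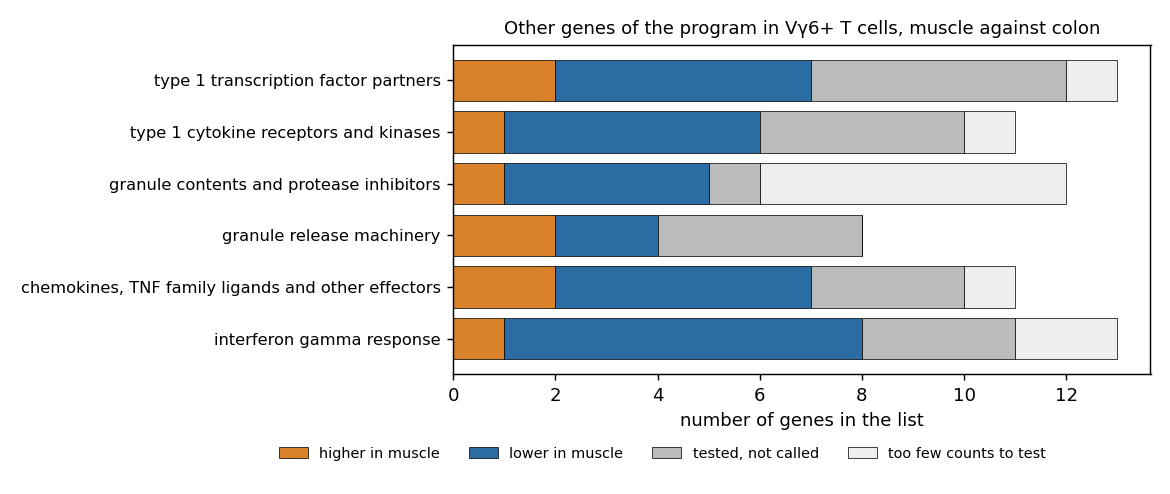
Number of genes in each of the 6 lists of other program genes that were higher or lower in Vγ6+ cells of injured muscle than of colon (edgeR adjusted p under 0.05), tested without passing, or too low in counts to test. Lower genes outnumber higher ones in 5 lists, and the granule release list has 2 of each.

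Of 11 cytokine receptor and kinase genes 10 were tested, 5 were lower and 1 higher (median log2 change -0.36). The receptor chains of interferon gamma moved in opposite directions. Ifngr1, the ligand-binding chain, fell from 3720 ± 219 to 779 ± 141 CPM (4.88-fold, log2 -2.29 ± 0.11, adjusted p = 8.13e-10). Ifngr2, the signalling chain, rose from 41.5 ± 22.0 to 238 ± 50.9 CPM (5.73-fold, log2 2.52 ± 0.41, adjusted p = 0.00867), and was singled out after its value was seen. Without a filter on low counts its adjusted p was 0.0515. Il18rap, a chain of the IL-18 receptor, was 1.45-fold lower and Il27ra, a chain of the IL-27 receptor, 1.36-fold lower (adjusted p = 0.000338 and 0.00137). Il12rb1 and Tyk2 were also lower. Il12rb2, the chain that couples IL-12 to STAT4, was too low for the test, with 7 counts in muscle and 32 in colon cells.

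Of 12 genes of granule contents and protease inhibitors only 6 could be tested, 4 were lower and 1 higher (median log2 change -1.08). Ctsw, a protease of cytotoxic cells, fell from 653 ± 129 to 67.6 ± 7.91 CPM (9.86-fold, adjusted p = 6.91e-10). Serpinb9, an inhibitor of granzyme B, was 5.74-fold lower (adjusted p = 0.00213) and Srgn, the granule proteoglycan serglycin, 1.57-fold lower (adjusted p = 0.000151). Serpinb6b was lower as well, and Ctsc, which activates granzymes, was higher. The granzymes C, D, E, F, K and M had at most 16 counts in a group.

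The machinery that docks and releases granules was split. All 8 genes of it were tested, 2 were higher, 2 lower and 4 did not pass (median log2 change 0.07). Rab27a, the GTPase that brings granules to the membrane, was 1.4-fold higher in muscle cells (adjusted p = 0.00107) and Unc13d, which primes them for fusion, 1.38-fold higher (adjusted p = 0.00651). Lyst, whose loss gives giant granules, was 3.63-fold lower (adjusted p = 9.83e-05), and Vamp7 was the other lower gene.

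Among 11 chemokines, TNF family ligands and other effectors 10 were tested, 5 were lower and 2 higher (median log2 change -0.81). Ccl4, an inflammatory chemokine, fell from 28.3 ± 12.8 to 1.17 ± 0.92 CPM (24.8-fold, adjusted p = 6.78e-06). Csf2, which encodes GM-CSF, was 24.2-fold lower, with 4 counts left in muscle cells against 100 (adjusted p = 0.000592), and Tnfsf14, the ligand LIGHT, was 2.71-fold lower (adjusted p = 1.77e-06). Ccl5 and Fas, the receptor of Fas ligand, were the other lower genes. Ccl4, Csf2 and Ccl5 had enough counts only through the colon libraries, which almost fixed their direction. Tnf and Ltb were higher in muscle cells.

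Genes induced by interferon gamma were tested in 11 of 13 cases, of which 7 were lower and 1 higher (median log2 change -1.02). Gbp4, a guanylate-binding protein, fell from 425 ± 33.6 to 155 ± 32.4 CPM (2.81-fold, adjusted p = 7.01e-07). Psmb9, an immunoproteasome subunit, was 2.11-fold lower (adjusted p = 5.95e-06), and Igtp, an immunity-related GTPase, 2.03-fold lower (adjusted p = 2.72e-05). Cd274, Gbp2, Cxcl10 and Psmb8 were also lower, and H2-Ab1 was higher. All p-values of these 6 lists are from the same edgeR fit over 11907 genes.

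Across all groups, 9 of the 10 members had their highest group mean in Vγ6+ cells of the colon. The members' summed level ran from 1.58 to 18.8 CPM in the 27 whole-muscle libraries, with 1075 counts in all, and from 0 to 1.64 CPM in the 6 satellite cell libraries, with 20 counts in all. The highest group mean of Nkg7 outside Vγ6+ cells was 6.05 CPM, in PBS-treated muscle at day 7, and that of Gzma was 3.25 CPM, in wild-type muscle at day 3. Those of Tbx21 and Prf1 were 3.27 CPM, with rIL-17A, and 1.58 CPM, in wild-type muscle at day 14. Ifng had 3 counts in 2 of the 27 whole-muscle libraries. Vγ6+ cells of muscle ranked next for Tbx21, Stat4, Gzmb and Prf1. For Nkg7, Gzma, Xcl1, Fasl and Ifng their mean lay below that of at least 1 whole-muscle group, as with Gzma at 1.59 CPM and Xcl1 at 0 CPM against 3.25 and 0.926 CPM in wild-type muscle at day 3. The member not highest in the colon was Eomes, with 60 counts in 20 whole-muscle libraries against 3 in the 6 Vγ6+ libraries.

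**Figure D4:**
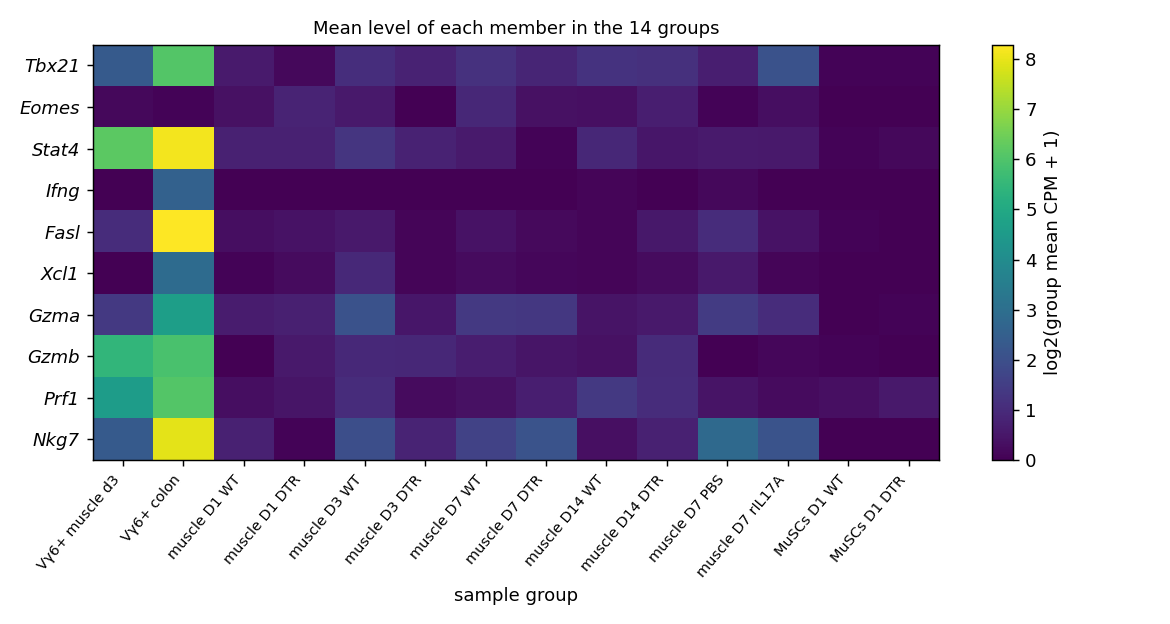
Mean level of each member in the 14 sample groups, as log2(group mean CPM + 1), with Vγ6+ groups at the left. The colon column is brightest for each member but Eomes, with group means up to 311 CPM for Fasl, while no whole-muscle or satellite cell group mean is above 6.05 CPM.

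The time course asked what muscle lacks when γδ T cells are depleted. In bulk muscle, fewer cells of a type and less RNA per cell cannot be told apart. Only Tbx21, Gzma, Prf1 and Nkg7 had enough counts to be tested, and none of these 4 passed between Tcrd-DTR and wild-type muscle at any day or over the mean of days (edgeR, adjusted p from 0.667 to 1). Over all 18264 genes tested, the share that passed was 0% on day 1, 0% on day 3, 2.01% on day 7, 0.0767% on day 14 and 0.0274% for the mean over days. At days 1 and 3 edgeR called 0 genes, 777 and 873 had an unadjusted p under 0.05, and DESeq2 called 0 and 1.

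Tbx21 at day 1 had 2, 3 and 3 counts in wild-type and 2, 0 and 0 in Tcrd-DTR muscle (0.451 to 0.523 against 0 to 0.363 CPM), which did not overlap but lie at a floor of 3 counts. Gzma had the smallest unadjusted p of the tested members at a single day. At day 3 it had 46, 10 and 1 counts in wild-type muscle (7.07, 2.40 and 0.279 CPM) and 0, 0 and 8 counts in Tcrd-DTR muscle (0, 0 and 1.21 CPM). The groups overlapped, and the log2 difference of -2.73 ± 1.10 (SE) had an unadjusted p of 0.0174 and an adjusted p of 0.869. At day 7 the group means were alike, at 1.59 CPM in wild-type (0.322 to 2.99 CPM) and 1.51 CPM in Tcrd-DTR muscle (1.46 and 1.57 CPM, n = 2).

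Nkg7 at day 3 read 4.92, 0.959 and 3.07 CPM in wild-type and 0.439, 0.220 and 1.67 CPM in Tcrd-DTR muscle. At day 7 it read 3.70, 0.859 and 1.85 CPM against 1.99 and 4.65 CPM, so the order of the genotype means changed between those days. The interaction of genotype with time did not pass for it (edgeR adjusted p = 0.384), nor for the other 3 tested members, while 0.608% of all genes passed that test. Prf1 was scattered, with 2.77, 0.480 and 0 CPM in wild-type muscle at day 3.

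Over the 4 days the fitted mean difference, Tcrd-DTR minus wild-type, was -0.79 ± 0.62 for Tbx21, -0.53 ± 0.61 for Gzma, -0.34 ± 0.67 for Prf1 and -0.78 ± 0.59 for Nkg7 (log2, SE). The adjusted p-values were 0.776, 0.855, 0.928 and 0.768 (edgeR). None of the 4 estimates was as much as 2 SE from 0. For Nkg7 the difference of mean CPM over days changed sign with the scaling, from -0.312 CPM of the library total to 0.0862 CPM with TMM scaling. For the 6 members too low for the fit, an exact permutation test of the mean CPM over days (80000 arrangements within days, 2-sided) gave p from 0.139 for Stat4 to 1 for Ifng, unadjusted. At a single day, with 20 or 10 arrangements, the smallest p such a test can give is 0.1. Xcl1 and Eomes reached it at day 3, lower in Tcrd-DTR muscle, and Fasl and Gzmb at day 14, higher there. Their group means on those days were at most 1.045 CPM. In raw totals, wild-type against Tcrd-DTR, Stat4 had 54 and 25 counts, Xcl1 19 and 7, Fasl 20 and 13, Eomes 34 and 22, and Gzmb 33 and 36, over 65053654 and 60907367 counts.

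Change over time was tested within each genotype. In Tcrd-DTR muscle Nkg7 changed over the 4 days (edgeR F-test, adjusted p = 0.000938), with 1, 0 and 0 counts on day 1, then 2, 1 and 11 on day 3, 19 and 51 on day 7, and 1, 4 and 0 on day 14. In wild-type muscle it had 0, 5 and 7 counts, then 32, 4 and 11, then 26, 8 and 14, and last 1, 2 and 0, and just missed the threshold (adjusted p = 0.0559). That p fell to 0.0314 with the replicate number as a block and to 0.0492 with scaling by library size alone. It fell to 0.0362 without wild-type day 3 replicate 2 and to 0.0418 without wild-type day 7 replicate 2. The share of all genes that changed over time was 53.7% in wild-type and 56.2% in Tcrd-DTR muscle, so a call of 1 of 4 members lay below it. Tbx21, Gzma and Prf1 passed in neither genotype, except that Gzma passed in Tcrd-DTR muscle without day 3 replicate 3 (adjusted p = 0.0197).

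**Figure D5:**
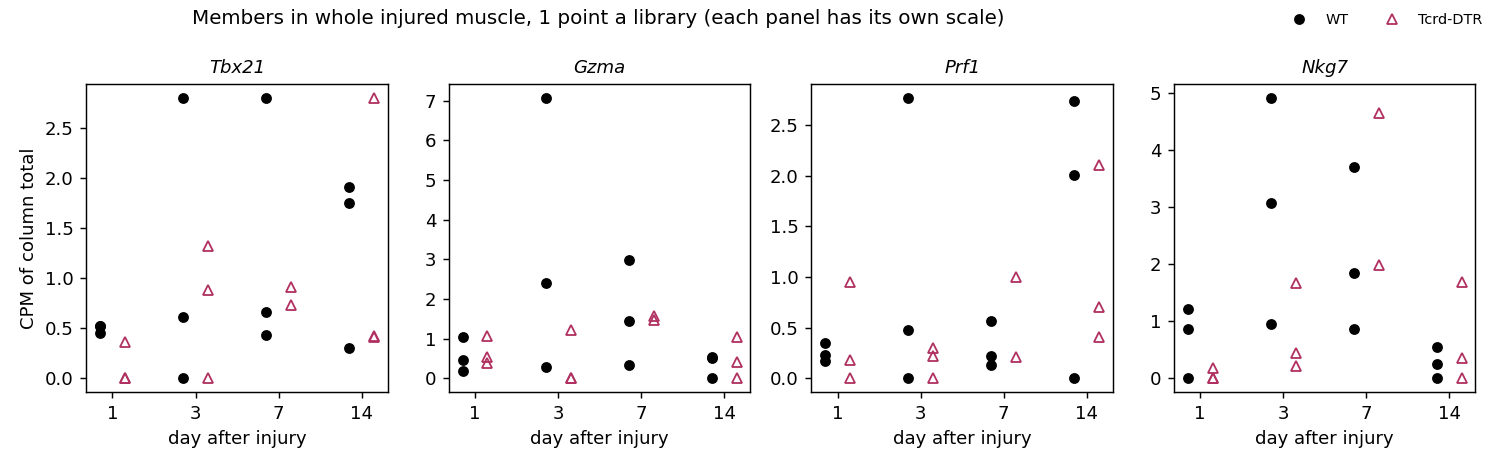
CPM of the 4 members with enough counts to test in whole injured muscle at days 1, 3, 7 and 14, with 1 point a library (filled circles wild-type, open triangles Tcrd-DTR); each panel has its own linear scale. The genotypes overlap for each gene and day except Tbx21 at day 1, and Nkg7 is highest at days 3 and 7 in wild-type and at day 7 in Tcrd-DTR muscle.

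Of the 59 tested genes of the 6 lists, 3 (5.08%) passed between genotypes at day 7, where 2.01% of all genes did. Bhlhe40 was lower in Tcrd-DTR muscle, with 327 and 478 counts against 698, 667 and 769 (log2 -0.999 ± 0.22, adjusted p = 0.0128). Nos2, the inducible nitric oxide synthase, was lower with 1 and 2 counts against 9, 25 and 13 (adjusted p = 0.0175), and Psmb8, an immunoproteasome subunit, was higher (1.16 ± 0.27, adjusted p = 0.0187; edgeR). Bhlhe40 also passed the interaction of genotype with time (adjusted p = 0.0302). No gene of the 6 lists passed at days 1, 3 or 14 or over the mean of days. These 3 were named for having passed, from lists chosen with earlier results of these data known. Psmb8 had 394 and 578 counts in Tcrd-DTR and 187, 251 and 143 in wild-type muscle. In the separate cytokine experiment, wild-type muscle with PBS at day 7 had 0 and 1 counts of Nos2, 166 and 436 of Bhlhe40 and 539 and 305 of Psmb8. For all 3 genes these counts lay on the Tcrd-DTR side of the wild-type time course. The cause of this difference between wild-type groups was not tested.

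Recombinant IL-17A was given to test its effect on regenerating muscle at day 7. Only Tbx21, Gzma and Nkg7 were tested, and none passed, where 34.1% of 12896 genes did. Tbx21 had 3 and 6 counts with PBS (0.377 and 0.858 CPM) and 18 and 18 with rIL-17A (2.80 and 3.75 CPM). The groups did not overlap, and the log2 difference was 2.22 ± 0.91 (SE, edgeR adjusted p = 0.0765, n = 2 each). It passed without PBS replicate 3 (2.95, adjusted p = 0.0385), in a fit in which the lone PBS library is assumed to vary like the others.

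Nkg7 read 7.66 and 4.43 CPM with PBS and 1.55 and 5.21 CPM with rIL-17A, so the groups overlapped (log2 -1.03 ± 0.64, adjusted p = 0.233). Gzma read 1.88 and 1.57 CPM against 1.09 and 1.04 CPM, lower in both treated libraries but with a wide error (log2 -0.83 ± 0.90, adjusted p = 0.506; edgeR). Fasl had 15 counts in PBS replicate 3 and 0 in PBS replicate 1, against 3 and 0 with rIL-17A. Scaling by library size alone moved the median of all genes by more than 0.1, from 0.05 to 0.20 on the log2 scale, and the split of genes that passed from 2328 higher and 2072 lower to 2589 and 1485.

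Of the genes in the 6 lists 47 were tested with rIL-17A and 15 (31.9%) passed, a share close to the 34.1% of all genes. Nos2 was higher, with 97 and 69 counts against 0 and 1 with PBS (edgeR adjusted p = 9.64e-05), as were Hlx, a homeobox partner of T-bet (log2 4.78 ± 0.55, adjusted p = 0.000113), Unc13d, Tyk2, Zeb2 and Lamp1. Ccl5 was lower (log2 -1.77 ± 0.41, adjusted p = 0.00577), as were Ccl3, Il2rg, Vamp8, Ctsc, Ifngr1, Igtp, H2-Ab1 and Psmb8. Macrophage markers also moved, 3 of 5 tested being lower and none higher, with a summed level of 1232 to 1641 CPM with PBS and 478 to 591 CPM with rIL-17A. Of 4 satellite cell markers 2 were lower (89.7 to 108 CPM summed with PBS, 55.6 to 60.0 CPM with rIL-17A). Their part in the changes of the listed genes was not tested. By list, the partner factors had 2 of 10 tested higher and none lower, the interferon gamma response 1 of 13 higher and 3 lower, the chemokines and ligands 2 of 5 lower, the granule contents 1 of 5 lower, the release machinery 2 of 8 higher and 1 lower, and the receptors and kinases 1 of 6 higher and 2 lower.

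In satellite cells no member had enough counts to be tested between genotypes. Prf1 had 12 of the 20 member counts, in 3 of 6 libraries, and Eomes, Ifng, Xcl1 and Nkg7 had none. With 15720995 counts in the wild-type and 17207002 in the Tcrd-DTR group, 0 counts allow at most 0.191 and 0.174 CPM over a group. Of the 12081 genes tested 0% passed (edgeR), 719 had an unadjusted p under 0.05 and DESeq2 called 7. None of the genes of the 6 lists passed.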

How the data were processed

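PolyA RNA of 39 libraries was sequenced, and the authors deposited raw counts per gene symbol. Tools named per the submitters' processing notes are STAR 2.7.3a, featureCounts and Subread 2.0.0, with mm10 as build. How strand, annotation and multi-mapping or duplicate reads were treated is not given in the sources used here, so counts of overlapping genes are uncertain. The members and gene lists were chosen with earlier results of these data known.

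Groups came from the labels. CPM is the count scaled to the column total. Tests used edgeR 4.0.16 in R 4.3.3 (quasi-likelihood F-test, robust, TMM, filterByExpr with at least 10 counts and a total of at least 15, Benjamini-Hochberg adjusted p under 0.05). The Vγ6+, cytokine and satellite cell libraries were fitted separately, and the time course in 1 fit. DESeq2 1.42.0, other scalings, no filter, a replicate block and leaving out each library were alternatives. Folds against 0 counts use a floor of 3 counts over the group, which covers counting error only.

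Positions, transcript lengths and shared 50-base words came from GENCODE M21 (GRCm38), and upstream sequences from RefSeq, which held all 10 members. Other genes named were up to 3 of each list with the smallest adjusted p in the Vγ6+ comparison and the 5 genes of most like pattern over groups. Genes given by name only, and those that passed in other comparisons, were chosen after their values were seen. A run on simulated data checked only that the tests recovered most of the changes put in, with no limit set on false calls. A chi-square test found no copied replicates, with a lowest value of 3.43 for each degree of freedom.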

Additional observations from a re-analysis of the deposited data

How the results depend on the processing

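In Vγ6+ cells 7 members passed in all the alternatives run, and of 99 single member values 96 kept their direction and side of the threshold, while Gzmb passed in 2 settings and Gzma in 1. The 66 counts for the 6 gene lists stayed within 1.5 times. Over all comparisons 161 of 167 counts of members did not move, and neither did 118 of 167 counts of genes. Of 20 mean CPM levels of members in the Vγ6+ groups, 4 moved by more than 1 SD with TMM scaling over all 39 libraries. The replicate numbers did not pair the samples, since same-numbered libraries correlated at -0.076 to 0.087 in their deviations from the group means. With the replicate block the genes that passed numbered 8 at day 3, 137 at day 7, 36 at day 14 and 2 for the mean over days, and 1 member passed over time in wild-type muscle.

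Without a filter on low counts 17 genes passed at day 1, 34 at day 3, 55 at day 14, 30 for the mean over days, 519 for the interaction and 101 in satellite cells. Library size alone gave 1 gene at day 3, 608 at day 7, 11 for the mean over days, 211 for the interaction and 1 member over time in wild-type muscle. DESeq2 gave 1 gene at day 3, 859 at day 7, 66 at day 14, 45 for the mean over days, 490 for the interaction and 7 in satellite cells. Fitted on their own, day 7 gave 92 and day 14 gave 80. With 1 library left out the genes numbered 0 to 14 at day 3, 26 to 729 at day 7, 2 to 47 at day 14, 1 to 16 for the mean over days, 21 to 237 for the interaction, 2266 to 5266 with rIL-17A and 0 to 2 in satellite cells. The members numbered 0 to 1 over time in wild-type muscle, 1 to 2 in Tcrd-DTR muscle and 0 to 1 with rIL-17A. The cause of these shifts was not tested. The difference in Nkg7 over days, Tcrd-DTR minus wild-type, reversed from -0.312 to 0.0862 CPM with TMM scaling, at an exact permutation p of 0.897. In whole muscle 6 of 10 members in the time course and 7 of 10 in the cytokine experiment had too few counts to test at this depth.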

Other observations

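Over the 14 groups, the 5 genes whose log2(mean CPM + 1) ran most like the average of the members, among 12570 genes with at least 5 CPM in a group, were Serpina3f (Pearson r = 0.985), Klrb1b (0.971), Serpina3g (0.967), Klrb1c (0.967) and Gimap7 (0.956). The groups differ in tissue, sorting and RNA input, and 1 of them, colon Vγ6+ cells, is far above the rest, so these values describe a shared peak. Serpina3g, a serine protease inhibitor, stood at 419 ± 82.8 CPM in colon and 14.97 ± 5.29 CPM in muscle Vγ6+ cells, and Serpina3f at 256 ± 68.9 and 6.21 ± 2.52 CPM (SD, n = 3 each). Klrb1b, a C-type lectin receptor of the NK1.1 family, stood at 300 ± 54.4 and 10.1 ± 5.72 CPM, and Gimap7, a GTPase of lymphocytes, at 62.9 ± 19.8 and 4.82 ± 0.81 CPM. None of the 5 had a group mean above 4.47 CPM in whole muscle or satellite cells. Of the members themselves Eomes did not share the pattern (r = -0.083), and the other 9 had r from 0.864 for Gzmb to 0.958 for Tbx21 and Fasl. Each member was left in the average it was compared with, so the r values of members are partly built in.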
